A study of Rattus norvegicus with 8 samples.

Results

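The genes described here encode subunits of the phagocyte NADPH oxidase, the enzyme complex with which macrophages and neutrophils make superoxide. They were chosen by symbol, with no rule on their values but with earlier results of these data known. They were Cybb, Cyba, Ncf1, Ncf4, Rac1 and Rac2, and these 6 were found among the 23487 genes of the count table. RNA-seq was performed on peritoneal macrophages of female Wistar rats injected into the peritoneal cavity, when 8 weeks old, with the same mass of either needle-like, mesotheliomagenic carbon nanotubes (CNT-7, MWCNT-XNRI-7) or tangled, non-mesotheliomagenic ones (CNT-T). Both particles were given in phosphate-buffered saline with albumin, and the cells were purified 15 days later by flow cytometry sorting. The study gated macrophages on CD11b/c and His48. Each of the 8 libraries came from a single rat, rats 3, 5, 10 and 11 after CNT-7 and rats 1, 2, 12 and 13 after CNT-T, and as libraries of uninjected animals were not analysed here, every difference is one between the particles. The totals were between 27394995 and 30215063 estimated counts per rat after CNT-7 and between 27195157 and 33732981 after CNT-T.

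All 11 macrophage markers examined were present in both groups, with Lyz2 (lysozyme) having the most counts and Csf1r, the receptor of the growth factor M-CSF, at 1219.97 ± 68.2 CPM (counts scaled to a common library size, SD, n = 4) in the CNT-7 group against 1531 ± 143 CPM in the CNT-T group. Their summed level was 18875 to 24993 CPM in CNT-7 rats and 27479 to 39683 CPM in CNT-T rats, and 8 of the 11 (72.7%, against 27.9% of all genes) were significant, 7 of them lower and 1, Cd14, higher after CNT-7. Cd163 fell most, with 180 ± 60.8 CPM after CNT-7 against 582 ± 94.0 CPM after CNT-T (adjusted p = 0.0011, edgeR). Next was Adgre1, with 271 ± 40.7 CPM against 592 ± 56.6 CPM (adjusted p = 0.00040, edgeR). Of the 7, Cd68 (adjusted p = 0.071, edgeR) lost significance in 6 of 8 fits with 1 rat omitted. In RNA of a sorted population, fewer cells of a type and less RNA per cell cannot be told apart. The part of these marker differences in the results for the subunits was not tested.

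The oxidase transfers electrons from NADPH in the cytosol to oxygen in the phagosome or outside the cell. Its membrane core is a heterodimer of gp91phox, the catalytic chain encoded by Cybb, and p22phox, encoded by Cyba. In resting cells the organizer p47phox (Ncf1) and p40phox (Ncf4) remain in the cytosol, and they move to the membrane upon stimulation, together with a GTP-loaded Rac protein. A further cytosolic subunit was not analysed here. Phagocytosis of fibres is a classical stimulus of the complex in macrophages.

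RefSeq promoter windows were held for 3 of the 6 genes, Cybb, Cyba and Ncf1. The upstream sequences of Ncf1, a gene that differed between the particles, and of Cybb, the catalytic chain, are shown because the myeloid factor PU.1 is known to act on both genes. Ncf4, Rac1 and Rac2 had no window in the table. The sequences are those of RefSeq on the rat assembly GRCr8, they end just before the first annotated transcript start, and capitals mark matches to the motifs searched.
Ncf1, chr12:28121635-28121815, plus strand: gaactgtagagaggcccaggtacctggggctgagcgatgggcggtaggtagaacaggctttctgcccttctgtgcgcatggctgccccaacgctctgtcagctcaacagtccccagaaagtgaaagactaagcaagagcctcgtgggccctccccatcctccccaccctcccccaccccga
Cybb, chrX:16065066-16065315, minus strand: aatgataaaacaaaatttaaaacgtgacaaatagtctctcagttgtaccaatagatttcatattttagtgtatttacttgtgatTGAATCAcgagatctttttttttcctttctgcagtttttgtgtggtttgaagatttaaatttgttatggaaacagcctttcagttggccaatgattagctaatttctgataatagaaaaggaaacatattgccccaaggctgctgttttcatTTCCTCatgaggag
Each window of 300 bases runs from 250 bases before an annotated start to 50 bases after it. In Ncf1 a further annotated start lies upstream of the one the window is placed on, and therefore 181 bases are shown. Both strands of the full windows were searched for GAGGAA (the core of PU.1 sites), TGANTCA (AP-1) and TATAAA (the TATA box). In Cybb, GAGGAA was found once, on the opposite strand and beginning 14 bases before the start, and TGANTCA once, beginning 166 bases before it, so that these matches do not overlap. The windows of Ncf1 and Cyba held none of the 3 motifs. Of all 33469 windows, 27.6% held GAGGAA, 7.33% TGANTCA and 14.2% TATAAA, so that a match to GAGGAA is common. These are matches of letters and not bound sites, and Cybb and Cyba were added to the search after the values were known.

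Of the genes of the membrane core, neither differed significantly between the particles. Cybb (ENSRNOG00000003622) took between 0.292% and 0.355% of all counts of a rat. It had 2894, 3549, 3132 and 2939 CPM in CNT-7 rats 3, 5, 10 and 11, and 3125, 2927, 3082 and 3191 CPM in CNT-T rats 1, 2, 12 and 13. The groups overlapped, and CNT-7 rat 5 had the highest level of all 8 rats and CNT-7 rat 3 the lowest. The means were 3129 ± 299 CPM with CNT-7 against 3081 ± 112 CPM with CNT-T (SD, n = 4). The log2 fold change, positive where CNT-7 was higher, was 0.022 (standard error, SE, 0.088, adjusted p = 0.89, quasi-likelihood test of edgeR, adjusted by Benjamini-Hochberg over all genes tested), with a 95% confidence interval of -0.18 to 0.22, that is, between 0.885-fold and 1.16-fold. Its sign turned without CNT-7 rat 5 (-0.046) or CNT-T rat 2 (-0.0033), so that no direction is given.

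Cyba (ENSRNOG00000013014) had 334, 334, 337 and 348 CPM in CNT-7 rats 3, 5, 10 and 11. In CNT-T rats 1, 2, 12 and 13 it had 415, 421, 379.7 and 292 CPM. The CNT-7 rats were thus close to each other, 3 of the CNT-T rats lay above all of them and CNT-T rat 13 lay below all of them. The coefficient of variation was 1.9% after CNT-7 and 15.8% after CNT-T. The means were 338 ± 6.41 CPM and 377 ± 59.5 CPM, with a log2 fold change of -0.16 (SE 0.11, adjusted p = 0.37, edgeR). The 95% confidence interval was -0.40 to 0.092. This result depended on a single animal, as without CNT-T rat 13 the log2 fold change was -0.26 with an adjusted p = 0.031 (edgeR).

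The genes of the cytosolic subunits p47phox and p40phox were both significantly higher after CNT-7, by 22.4% and 26.5%. Ncf1 (ENSRNOG00000001480) encodes p47phox, which is phosphorylated upon stimulation and then binds p22phox. It had 1659.6, 1724, 1663 and 1696 CPM in CNT-7 rats 3, 5, 10 and 11, and 1330.2, 1432, 1419 and 1327 CPM in CNT-T rats 1, 2, 12 and 13. Every CNT-7 rat was above every CNT-T rat. The means were 1686 ± 30.6 CPM with CNT-7 against 1377 ± 56.5 CPM with CNT-T (SD, n = 4), a log2 fold change of 0.29 (SE 0.068, adjusted p = 0.015, edgeR). The 95% confidence interval was 0.14 to 0.44, or 1.10-fold to 1.36-fold.

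Ncf4 (ENSRNOG00000006940) encodes p40phox, which binds a phosphoinositide of the phagosome membrane. In CNT-7 rats 3, 5, 10 and 11 it had 416, 431, 468 and 393 CPM. In CNT-T rats 1, 2, 12 and 13 it had 336, 372, 335 and 306 CPM. The groups did not overlap, although CNT-7 rat 11 and CNT-T rat 2 came close to each other. The means were 427 ± 31.6 CPM and 337 ± 27.1 CPM, a log2 fold change of 0.34 (SE 0.085, adjusted p = 0.019, edgeR), with a 95% confidence interval of 0.15 to 0.53. With any single rat omitted, the log2 fold change stayed between 0.27 and 0.31 for Ncf1 and between 0.29 and 0.39 for Ncf4, and the highest adjusted p-values of edgeR were 0.046 and 0.057. Neither gene reached a 2-fold change.

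**Figure D1:**
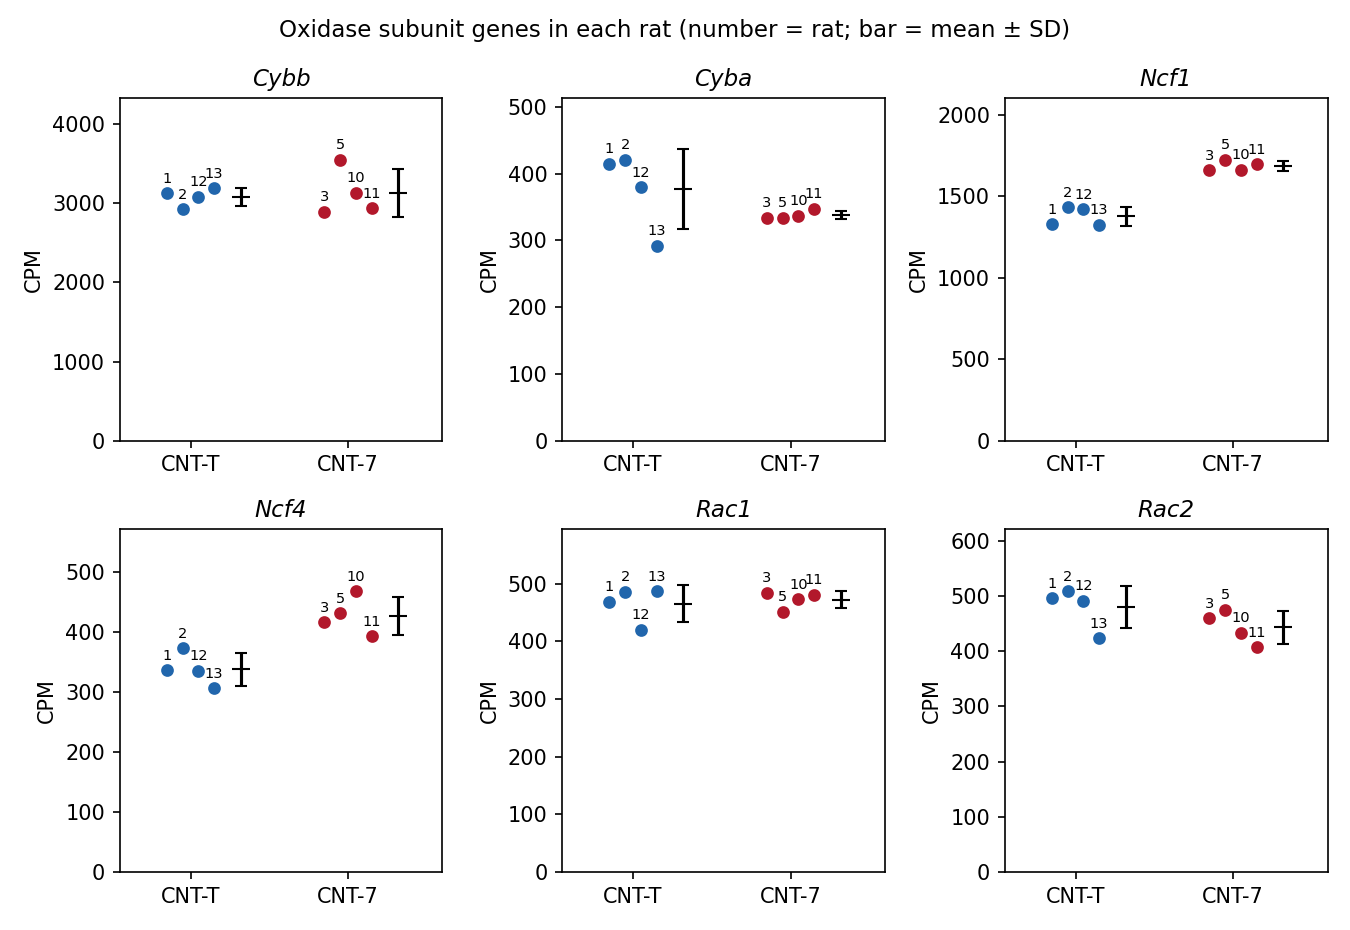
Level of each subunit gene in CPM (y axis, from 0) in the 4 CNT-T rats (blue) and the 4 CNT-7 rats (red), each point a rat with its number and each bar the mean ± SD. The groups are separate for Ncf1 and Ncf4 and overlap for the other 4 genes, and CNT-T rat 13 stands low for Cyba at 292 CPM.

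Neutrophils also make this oxidase in quantity, so their markers were examined in the same libraries. Of 13 neutrophil markers, Mpo (myeloperoxidase) had 0 counts in every rat, and Prtn3, Camp, Ngp, Mmp8, Ltf and Lcn2 were also below the filter on low counts. The 13 summed to 34.7 to 64.0 CPM in CNT-7 rats and 30.2 to 89.95 CPM in CNT-T rats, most of it from Csf3r, the receptor of the growth factor G-CSF. Without Csf3r the sum was 4.13 to 10.4 CPM in CNT-7 rats and 10.5 to 32.5 CPM in CNT-T rats. Of the 6 markers tested, 2 (33.3%, against 27.9% of all genes) were significant, both of them lower after CNT-7. S100a8, a calcium-binding protein abundant in neutrophils, was significantly lower after CNT-7 at 2.24 ± 0.986 CPM against 6.17 ± 2.16 CPM (log2 fold change -1.46, adjusted p = 0.016, edgeR), as was the metalloproteinase gene Mmp9 at 0.785 ± 0.201 CPM against 8.89 ± 8.48 CPM (log2 fold change -3.50, adjusted p = 0.0041, and -2.58 without CNT-T rat 1). The log2 fold changes of Csf3r (0.39, adjusted p = 0.45, edgeR), of the chemokine receptor gene Cxcr2 (1.26, adjusted p = 0.19) and of S100a9 (1.23, adjusted p = 0.39, and -0.84 without CNT-7 rat 5) were positive and not significant, and that of the elastase gene Elane was negative and not significant (-0.68, adjusted p = 0.19). Elane passed the threshold without CNT-7 rat 5 (-1.07, adjusted p = 0.039, edgeR). Csf3r did so without CNT-T rat 1 (0.77, adjusted p = 0.064, edgeR) and Cxcr2 without CNT-T rat 2 (2.14, adjusted p = 0.040). The part of neutrophil RNA in the results for Ncf1 and Ncf4 was not tested.

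Neither Rac gene differed significantly. Rac1 (ENSRNOG00000001068), a GTPase made in nearly all cells, had 484, 451, 473 and 480.4 CPM in CNT-7 rats 3, 5, 10 and 11. In CNT-T rats 1, 2, 12 and 13 it had 468, 486, 419.9 and 487 CPM. The lowest and the highest of the 8 levels were both in CNT-T rats. At 472 ± 14.7 CPM in the CNT-7 group against 465 ± 31.4 CPM in the CNT-T group, Rac1 had a log2 fold change of 0.020 (SE 0.072, adjusted p = 0.87, edgeR), and the sign turned without CNT-T rat 12 (-0.028). The 95% confidence interval of -0.14 to 0.18 was the narrowest of those of the 4 genes that were not significant. Its highest level was 1.16-fold its lowest, the smallest such range of the 6 genes.

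Rac2 (ENSRNOG00000007350), the form largely restricted to blood cells, had 459.8, 475, 434 and 407 CPM in CNT-7 rats 3, 5, 10 and 11. In CNT-T rats 1, 2, 12 and 13 it had 496, 509, 491 and 424 CPM. All but CNT-T rat 13 of the CNT-T rats were above all CNT-7 rats, the same arrangement as for Cyba except that CNT-7 rat 11 was the lowest. The means were 444 ± 30.0 CPM and 480.1 ± 38.4 CPM, with a log2 fold change of -0.11 (SE 0.084, adjusted p = 0.39, edgeR) and a 95% confidence interval of -0.30 to 0.075. Without CNT-T rat 13 the log2 fold change was -0.17 and still not significant (adjusted p = 0.16, edgeR). Because both Rac genes are similar in sequence and the quantification divides reads between similar transcripts, how much of their counts was shared is uncertain.

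Among the 6 subunit genes, 2 (33.3%) were significant, both of them higher after CNT-7, and 0 were lower. Of all 12124 genes tested, 27.9% were significant, 13.9% being higher and 14% lower after CNT-7. The groups did not overlap in the same 2 of the 6 genes, and in 24.9% of all genes. These shares are near the background, and the 6 genes are therefore not shown to respond more or less often than other genes. Their median absolute log2 fold change was 0.13, that of all genes tested 0.19, and 4 of the 6 lay below the latter. All 6 point estimates lay within the central 80% of all genes, which ran from -0.51 to 0.53.

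**Figure D2:**
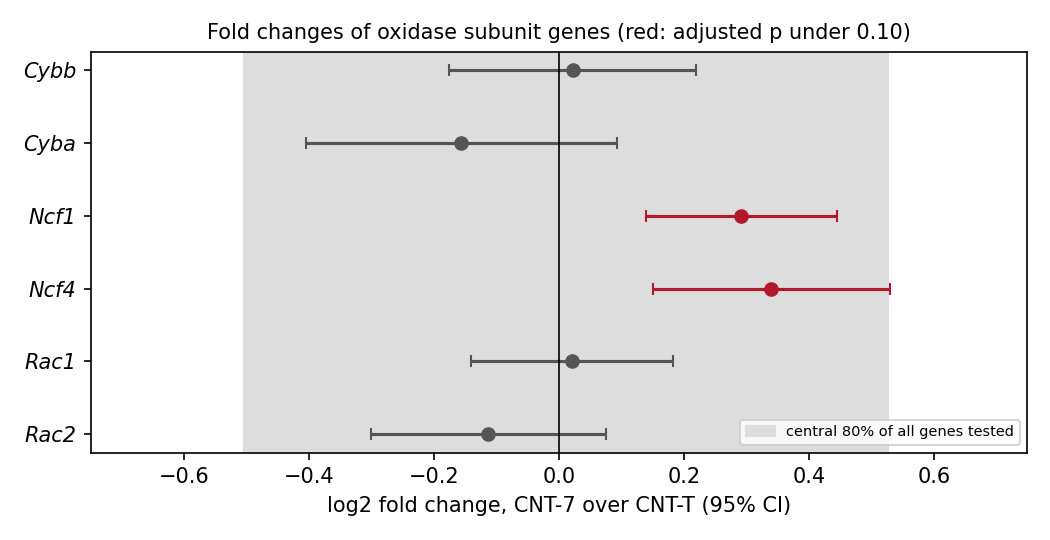
Log2 fold change, positive where CNT-7 was higher (x axis) for each subunit gene, with its 95% confidence interval from edgeR and in red where the adjusted p-value was under 0.10. The grey band is the central 80% of all genes tested, from -0.51 to 0.53, and the 6 points, between -0.16 and 0.34, lie within it.

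Ratios of partner genes were compared next, as both counts come from the same rat and library size cancels. Their absolute values depend on gene length, and only the differences between groups are read. The log2 ratio of Cybb to Cyba was 3.20 ± 0.15 (SD, n = 4) after CNT-7 and 3.05 ± 0.28 after CNT-T. It was lowest in CNT-T rat 2 (2.80) and highest in CNT-T rat 13 (3.45), with the CNT-7 rats between 3.08 and 3.41. The difference of 0.16 did not pass the test (two-sided exact permutation test, p = 0.34, and 0.51 after adjustment over the 3 ratios). Leaving out CNT-T rat 13 raised the difference to 0.29 and leaving out CNT-T rat 2 lowered it to 0.077.

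The log2 ratio of Ncf1 to Ncf4 was 1.98 ± 0.12 after CNT-7 and 2.03 ± 0.080 after CNT-T. The CNT-7 rats lay between 1.83 and 2.11 and the CNT-T rats between 1.94 and 2.12, so that the CNT-T range was almost inside the CNT-7 range. The difference of -0.048 did not pass the test (exact permutation test, two-sided, p = 0.63, adjusted p = 0.63). Its sign turned without CNT-7 rat 10 (0.0037), and it was -0.090 without CNT-7 rat 11. The log2 ratio of Rac2 to Rac1 was -0.090 ± 0.13 after CNT-7 and 0.044 ± 0.18 after CNT-T. It was positive in 1 of 4 CNT-7 rats, rat 5, and in 3 of 4 CNT-T rats, all but rat 13. The difference of -0.13 did not pass the test either (exact permutation test, two-sided, p = 0.26, adjusted p = 0.51). It was -0.22 without CNT-T rat 13 and -0.074 without CNT-T rat 12. The smallest p-value that 4 rats against 4 allow is 0.0286, and for a ratio that differs alone it is 0.0857 after adjustment over the 3 ratios, above the threshold of 0.05 set for them. With this test and adjustment a single ratio could therefore not be called, and these p-values do not show that the proportions were equal.

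**Figure D3:**
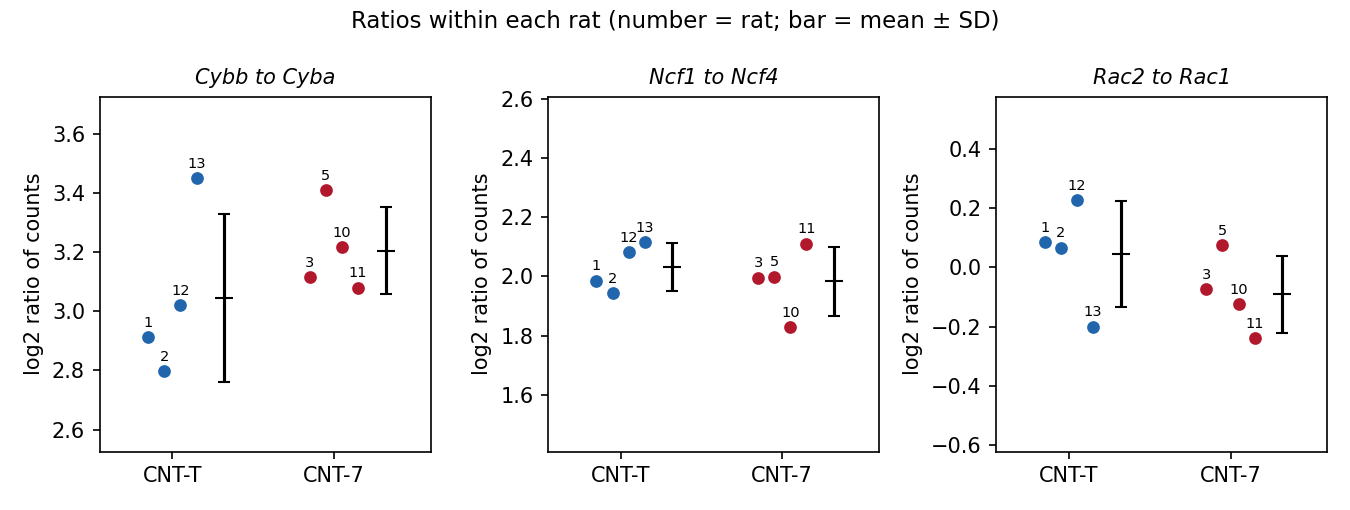
Log2 ratio of the counts of partner genes within each rat (y axis, the same span of 1.2 in each panel and not from 0), each point a rat with its number and each bar the mean ± SD. The CNT-7 (red) and CNT-T (blue) rats overlap in all 3 ratios, and CNT-T rat 13 has the highest Cybb to Cyba ratio, 3.45.

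The 6 genes were then compared with each other by the root mean square difference of their log2 CPM over the 8 rats, each gene centred on its own mean. Of the 15 pairs, Ncf1 and Ncf4 were closest (0.090), followed by Cyba and Rac2 (0.11). Cyba and Ncf4 were furthest apart (0.27), followed by Cyba and Ncf1 (0.26), and the difference between the membrane partners Cybb and Cyba was 0.21. CNT-T rat 13 was the lowest of all 8 rats for Cyba, Ncf1 and Ncf4 and the highest for Rac1. Relative to the mean of the 8 rats, its log2 levels were -0.28 for Cyba, -0.31 for Ncf4, -0.20 for Ncf1, -0.12 for Rac2, 0.042 for Cybb and 0.057 for Rac1. It also had the fewest counts, 27195157.

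Over all 7895 other genes with a symbol and at least 10 CPM, the pattern nearest to that of Ncf1 over the 8 rats was Nadk (root mean square difference of log2 CPM 0.034, with a median of 0.21 over all these genes), then Atp6ap1 (0.041) and Pde8a (0.050). Nearest to Ncf4 were Tbxas1, Gch1 and Dctn3 (0.044, 0.044 and 0.045). Nearest to Cybb were Tab2, Atf4 and Prdm2 (0.042 to 0.046), and nearest to Cyba were Ndufa11, Tsc22d4 and Ubl4a (0.052 to 0.058). For Rac1 they were Ppp2r2d, Fbxo6 and Brf1 (0.037 to 0.041), and for Rac2 Taf6, Rhno1 and Pqlc1 (0.038 to 0.048). No subunit gene was among the 3 nearest genes of another.

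Other oxidases of the same family and their partner proteins were examined next. Of 13 listed genes 11 were in the table and 6 were tested, of which 2 (33.3%, near the 27.9% of all genes) were significant, both higher after CNT-7. These were Duox2, a dual oxidase that makes hydrogen peroxide, and Duoxa2, which brings it to the cell surface, and RefSeq (GRCr8) places the genes next to each other with 0 genes between them. Duox2 had 11.8, 3.99, 3.18 and 34.5 CPM in CNT-7 rats 3, 5, 10 and 11, and between 0.13 and 0.297 CPM in the CNT-T rats. Its log2 fold change was 5.85 (SE 0.90, adjusted p = 0.0024, edgeR), and it was 4.76 without CNT-7 rat 11. Duoxa2 had 17.3, 7.64, 7.04 and 29.8 CPM in the same CNT-7 rats and between 0.033 and 0.251 CPM in the CNT-T rats, a log2 fold change of 6.46 (SE 0.65, adjusted p = 0.00035). Both genes passed the filter on low counts through the CNT-7 rats alone, with 4 to 9 counts of Duox2 and 1 to 8 counts of Duoxa2 per CNT-T rat, so that the size of these fold changes rests on few counts and the count of 2 supports nothing about the list. In the fit with no filter on low counts the adjusted p-values of edgeR were 0.0012 for Duox2 and 0.00013 for Duoxa2. No CNT-T rat came near a CNT-7 rat for either gene. Of the neighbouring pair, Duox1 had a log2 fold change of 0.90 (adjusted p = 0.25, with 0.30 without CNT-7 rat 11 and a significant 1.18 without CNT-7 rat 10, adjusted p = 0.095) and Duoxa1 of -0.20 (adjusted p = 0.70), with overlap between the groups. Cybc1 and Nrros, which act on the making and the stability of gp91phox, had log2 fold changes of -0.082 and 0.063 and were not significant, as Cybb itself was not. Nox3 and Nox4 had 0 counts in every rat, and 3 counts of the totals allow up to 0.109 CPM. When at least 10 counts were required in every rat, neither Duox2 nor Duoxa2 was tested.

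**Figure D4:**
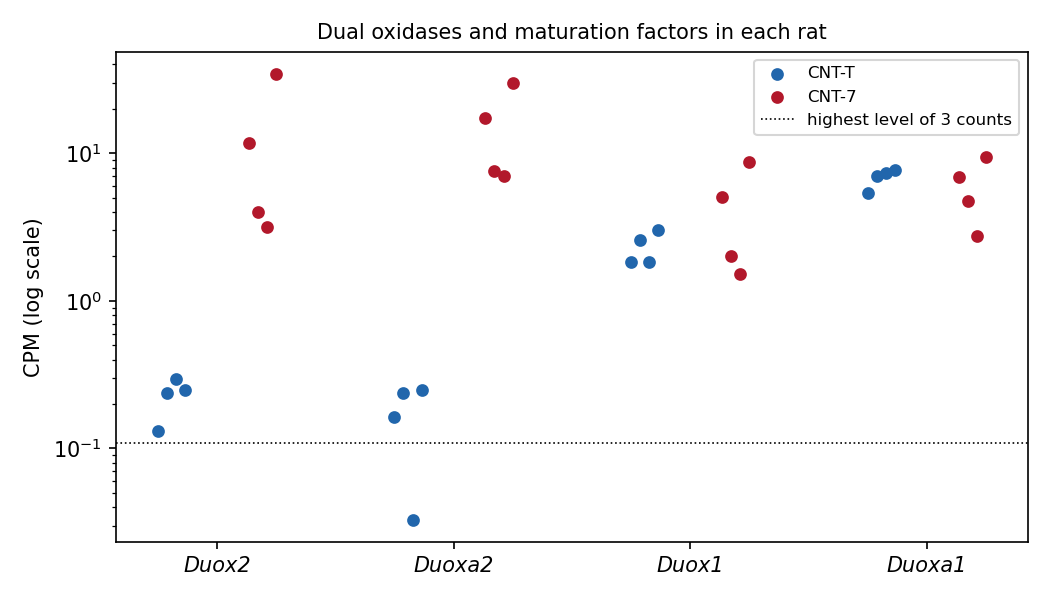
Level of the dual oxidase genes and of their maturation factors in CPM (log scale) in each CNT-T rat (blue) and CNT-7 rat (red), with the highest level that 3 counts stand for, 0.109 CPM, as a dotted line. Duox2 and Duoxa2 are separate, at 3.18 CPM or more after CNT-7 and 0.297 CPM or less after CNT-T, whereas Duox1 and Duoxa1 overlap.

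Among genes for proteins that take part in the assembly of the complex, differences in both directions were found. Of 33 listed genes 31 were tested, 10 were significantly higher, 7 were lower and 14 were not significant (54.8% in all, against 27.9% of all genes), with a median log2 fold change of 0.17 against 0.0083 for all genes. Several protein kinase C isoforms are known to phosphorylate p47phox, and their genes went both ways. Prkcd had 245 ± 24.8 CPM with CNT-7 against 189 ± 20.2 CPM with CNT-T (log2 fold change 0.38, adjusted p = 0.028, edgeR). Prkce, a further isoform, was also higher (log2 fold change 0.61, adjusted p = 0.0072), at 7.25 ± 0.746 CPM against 4.76 ± 0.184 CPM. In contrast, 3 isoforms fell, with log2 fold changes of -2.48 for Prkcz (adjusted p = 0.00025), -0.63 for Prkcb (adjusted p = 0.025) and -0.61 for Prkca (adjusted p = 0.036). Prex1, an exchange factor that loads Rac with GTP, rose from 52.4 ± 7.08 CPM to 82.3 ± 4.98 CPM (log2 fold change 0.65, adjusted p = 0.0020). Genes for transcription factors that act on the subunit genes were significant in 3 of 12 tested (25%), 2 higher and 1 lower. Spi1, which encodes PU.1, had a log2 fold change of 0.37 (adjusted p = 0.018) and Runx1 one of 0.77 (adjusted p = 0.00084), whereas Irf8, known to act with PU.1 in myeloid cells, had one of -1.90 (adjusted p = 0.00072). Whether these factors took part in the difference of Ncf1 and Ncf4 was not tested.

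**Figure D5:**
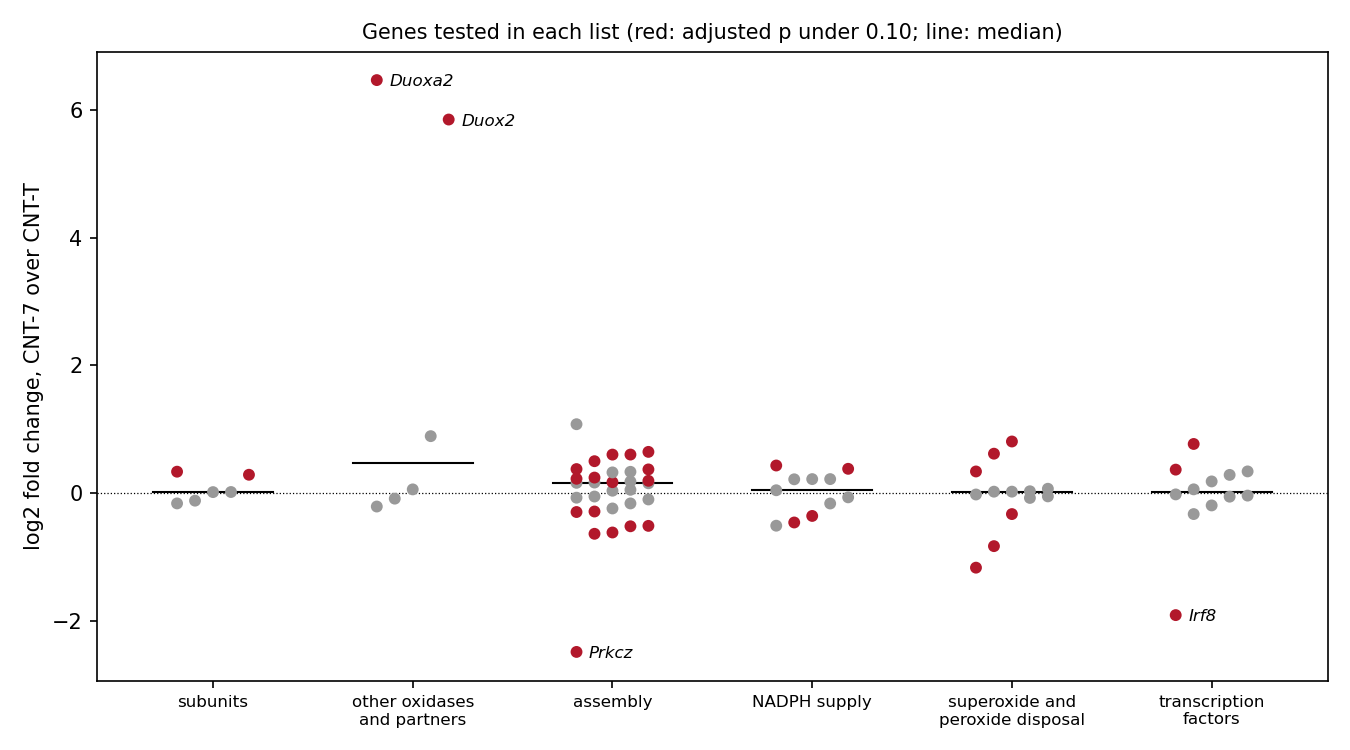
Log2 fold change, positive where CNT-7 was higher (y axis) of every tested gene of the subunits and of 5 related lists, in red where the adjusted p-value was under 0.10, with the median of each list as a line. The subunits lie between -0.16 and 0.34, and the genes furthest from 0 are Duoxa2 at 6.46, Duox2 at 5.85 and Prkcz at -2.48.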

How the data were processed

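RNA was taken from sorted peritoneal macrophages of 8 rats, 4 per particle, grouped by the sample labels. The authors quantified reads with Salmon against the Ensembl cDNA sequences of Rnor_6.0, imported them with tximeta and deposited estimated counts per gene, whole and not normalized (Salmon's version is not given in the sources used here). All values were whole, and 0 columns were left out. With R 4.3.3 and edgeR 4.0.16, quasi-likelihood models were fitted to all genes with TMM normalization and the default filter (minimum count 10, minimum total 15), with Benjamini-Hochberg adjustment over the 12124 genes tested and a threshold of 0.10, as in the study. CPM values use TMM-normalized library sizes, and log2 CPM a prior count of 2. Standard errors (SE) were derived from the F statistic of each gene, and log2 ratios have 0.5 counts added. The edgeR and DESeq2 tests were run first on simulated counts with changes of at least 2-fold. This check does not cover changes as small as those of the subunit genes. The permutation test was run first on made-up values with separate groups. At most 0.109 CPM corresponds to 3 counts, which covers counting error alone. No transcript lengths were used, so levels of the subunits were not compared between genes, and the marker with the most counts is the one with the highest CPM and not per length.

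Subunits and lists were chosen with earlier results of these data known. Named are the subunits, up to 4 significant genes per list with the largest change and at least 1 CPM, the 3 genes nearest to each subunit, and the marker with the most counts of each cell type. Cybc1, Nrros, Duox1, Duoxa1, Nox3, Nox4, Prkcd, Prkce and the other markers were named after their values were seen. As alternatives, DESeq2 1.42.0 replaced edgeR, scaling was by upper quartile or library size alone, the filter was dropped or raised to 10 counts per rat, the threshold was set to 0.05 or joined with a 2-fold change, rat numbers (low or high) entered as a covariate, and single rats were omitted. For the ratios, 10 counts were added or medians taken. Some list results are not reported here.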

Additional observations from a re-analysis of the deposited data

Results flagged for a closer look

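Among 114 sets of 4 values, 7 held an extreme rat whose distance to its neighbour, as a share of the whole range, passed Dixon's 95% critical value, and chance gives about 5.7. None of these was of a subunit gene or of a ratio. Rnd3 was high in CNT-T rat 13 (share 0.834), at 4.05 CPM, the others of its group lying between 1.81 and 2.18 CPM. Cd14 was low in CNT-7 rat 5 (0.871), at 245 CPM, and Lyz2 was low in CNT-7 rat 11 (0.940), at 12197 CPM against 19171 to 19618 CPM. S100a9 (0.920) and Lck (0.837) were high in CNT-7 rat 5, at 3.69 and 4.59 CPM, and Mmp9 was high in CNT-T rat 1 (0.842), at 21.5 CPM. Vcan was high in CNT-T rat 13 (0.839), at 1395 CPM, the others of its group lying between 761 and 863 CPM.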

How the results depend on the processing

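Ncf1 and Ncf4 were significantly higher after CNT-7 under every setting tried but a required 2-fold change, with edgeR or DESeq2. Their log2 fold changes were 0.29 for Ncf1 and between 0.33 and 0.34 for Ncf4 under the settings that kept all rats. With a 2-fold change required, 1006 genes and 0 subunit genes remained significant. Omitting single rats gave 2578 to 3515 significant genes and 2 to 3 significant subunit genes, the third being Cyba without CNT-T rat 13. The log2 fold changes then ranged from -0.046 to 0.058 for Cybb, from -0.26 to -0.10 for Cyba, from 0.27 to 0.31 for Ncf1, from 0.29 to 0.39 for Ncf4, from -0.028 to 0.041 for Rac1 and from -0.17 to -0.074 for Rac2. Cybb turned sign without CNT-7 rat 5 (-0.046) and CNT-T rat 2 (-0.0033), and Rac1 without CNT-T rat 12 (-0.028), none of these being significant. Among related genes that were not significant, Duox1 ranged from 0.30 (without CNT-7 rat 11) to 1.18 (without CNT-7 rat 10, significant), S100a9 ranged from -0.84 (without CNT-7 rat 5) to 1.59, Duoxa1 from -0.52 to 0.033 (without CNT-7 rat 10) and Cpa3 from -0.070 (without CNT-T rat 2) to 1.17. Other scalings moved the median log2 fold change of all genes to between 0.0018 and 0.0069. No paired analysis was possible because no rat number is shared between the groups. The causes were not tested. At the depth of these libraries, with at least 8156 counts of each subunit gene per rat, the spread between rats and not counting limits the subunit results.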

Other observations

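Genes listed for the supply of NADPH differed in both directions, although not every listed enzyme makes NADPH itself, or makes it in the cytosol. Of 12 listed genes 11 were tested, 2 were significantly higher and 2 lower after CNT-7 (36.4%, against 27.9% of all genes), with a median log2 fold change of 0.049. Rpia, of the pentose phosphate pathway, fell from 162 ± 3.80 CPM to 118 ± 3.27 CPM (log2 fold change -0.45, adjusted p = 0.00097, edgeR), and Idh2 had a log2 fold change of -0.35 (adjusted p = 0.031). Me2 and Idh1 rose by 0.44 and 0.38 on the log2 scale (adjusted p = 0.0081 and 0.063), and Idh1 lost significance in 5 of 8 fits with 1 rat omitted. Of the enzymes that act on superoxide or hydrogen peroxide, 13 were tested, 3 being higher and 3 lower (46.2%), with a median log2 fold change of 0.027. Sod2, the mitochondrial superoxide dismutase, had 199.9 ± 40.5 CPM with CNT-7 against 130.0 ± 15.8 CPM with CNT-T (log2 fold change 0.62, adjusted p = 0.016). Prdx5 rose by 0.81 and Prdx4 fell by 0.82 on the log2 scale (adjusted p = 0.0019 and 0.0015), 2 peroxiredoxins that moved in opposite directions without overlap between the groups. Gpx3 had a log2 fold change of -1.16 (adjusted p = 0.046) at 1.19 ± 0.551 CPM with CNT-7 against 2.66 ± 0.903 CPM with CNT-T, and lost significance without CNT-7 rat 3, CNT-7 rat 5 or CNT-T rat 12.

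Markers of cells other than monocytes and macrophages were low. Eosinophil markers summed to 9.33 CPM in CNT-7 rat 3 (mostly Ccr3) and to at most 0.670 CPM in the other rats. Mast cell markers summed to at most 2.21 CPM in any rat (mostly Cpa3). B cell markers reached 2.78 CPM in CNT-7 rat 5, with Cd79b having the most counts, and at most 0.456 CPM in the other rats. Mesothelial markers reached 0.369 CPM in CNT-7 rat 5 (mostly Msln) and at most 0.130 CPM in the other rats. T cell markers together reached 4.60 to 12.2 CPM in CNT-7 rats and 3.75 to 4.40 CPM in CNT-T rats, with Lck having the most counts. Without Lck the sums were 2.39 to 7.57 CPM against 0.286 to 0.857 CPM, without overlap. After Lck, Cd2 had the most counts, at 1.38 to 3.43 CPM in CNT-7 rats. Cd3d, Cd3e, Cd3g and Cd247 were below the filter on low counts. Of the 2 T cell markers tested, 1 was significant (50%, against 27.9% of all genes). Lck itself had a log2 fold change of -0.25 (adjusted p = 0.55, edgeR, and a significant -0.57 without CNT-7 rat 5, adjusted p = 0.075), and Cd2 was significantly higher after CNT-7, at 2.22 ± 0.869 CPM against 0.194 ± 0.0898 CPM (log2 fold change 3.48, adjusted p = 0.00070). Dendritic cell markers together gave between 5.61 and 11.6 CPM and between 4.37 and 8.38 CPM, with Zbtb46 having the most counts. Without Zbtb46 the sums were 1.19 to 5.76 CPM against 0.456 to 0.593 CPM, also without overlap. Flt3 and Xcr1 were below the filter on low counts. Of the 3 dendritic cell markers tested, 2 were significant (66.7%, against 27.9% of all genes). Zbtb46 itself had a log2 fold change of -0.22 (adjusted p = 0.65, edgeR, and between -0.41 and -0.027 with 1 rat omitted), and Clec9a and Ccr7 were both significantly higher after CNT-7, Clec9a at 1.32 ± 0.628 CPM against 0.390 ± 0.174 CPM (adjusted p = 0.026, edgeR) and Ccr7 at 1.503 ± 1.18 CPM against 0.102 ± 0.119 CPM (adjusted p = 0.011). Monocyte markers together reached 2617 to 3248 CPM in CNT-7 rats and 3547 to 3585 CPM in CNT-T rats. Of the 4 monocyte markers tested, 3 were significant (75%, against 27.9% of all genes), 1 higher and 2 lower after CNT-7. Plac8, which had the most counts, fell by 0.65 on the log2 scale (adjusted p = 0.011, edgeR). Without Plac8 the sums overlapped, at 1236 to 2184 CPM against 1360.3 to 1884 CPM. Fcnb was significantly higher at 0.954 ± 0.298 CPM against 0.114 ± 0.147 CPM (adjusted p = 0.012, edgeR), and Vcan had a log2 fold change of 0.26 (adjusted p = 0.50, and between 0.011 and 0.49 with 1 rat omitted). Cd2, Ccr7 and Fcnb had at most 11 counts in any CNT-T rat and passed the filter on low counts through the CNT-7 rats, and no fold is given for Ccr7 and Fcnb, which had 0 counts in a CNT-T rat. In the fit with no filter their adjusted p-values of edgeR were 0.00042, 0.0098 and 0.015. The part of these cell types in the results for the subunits was not tested.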
